A study of Mus musculus with 4 samples.

Results

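Translation initiation factor genes were examined in Long RNA-seq of cultured female germline stem cells (FGSCs) with and without knockdown of *Nat10*, which encodes the RNA acetyltransferase that writes ac4C. The genes were chosen by name: protein-coding genes whose symbol starts with Eif1 to Eif6, without the *Eif2ak* genes, which encode kinases that act on eIF2. This rule found 51 of the 53465 genes in the deposited table and used no measured value. By the number in the symbol, 5 belong to eIF1, 11 to eIF2, 14 to eIF3, 16 to eIF4, 4 to eIF5 and 1 to eIF6. The name does not always mark a core initiation factor. *Eif4ebp1* to *Eif4ebp3* and *Eif4enif1* encode proteins that bind eIF4E, *Eif4a3* encodes a helicase of the exon junction complex, *Eif5a* acts mainly in elongation and termination, and *Eif6* keeps large ribosomal subunits from joining too early.

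Initiation is the step at which a ribosome is placed on the start codon of an mRNA. The eIF2 trimer carries the initiator tRNA to the small ribosomal subunit together with eIF1, eIF1A, eIF3 and eIF5, and eIF2B recharges eIF2 with GTP after each round. The eIF4F complex, made of the cap-binding protein eIF4E, the scaffold eIF4G and the helicase eIF4A, binds the capped end of the mRNA and recruits the ribosome, while eIF5B joins the large subunit. Cells adjust protein synthesis mostly at these points, by phosphorylation of eIF2 and by proteins that keep eIF4E from eIF4G. These controls act largely on the proteins, and RNA-seq measures only the mRNA of each factor.

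The study compared 2 groups of 2 libraries each. The shNC group carried a control shRNA and the shNAT10 group an shRNA against *Nat10*, both brought into cultured FGSCs by lentivirus, with infected cells selected by puromycin or blasticidin. The study calls the libraries of a group biological replicates, but nothing in the labels says whether they came from separate cultures or infections, so p-values measure only the spread between these libraries. With 2 libraries against 2, an exact two-sided permutation test cannot give a p below 0.333. The sample labels describe isolation of mRNA on oligo-dT beads, whereas the methods describe removal of rRNA, so the records differ on the RNA that was sequenced.

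A gene was called at a fold change over 1.2 and a limma p of at most 0.05 without adjustment, as a threshold of this kind was used in the study. The shRNA target was called lower in the knockdown libraries. *Nat10* was at 7.79 and 5.42 FPKM in shNC and 2.95 and 3.04 in shNAT10, where FPKM is fragments scaled to exon length and a size factor of the library. Here and below the first value of a group is replicate 1 and the second is replicate 2. The log2 fold change was -1.09 ± 0.21 (SE) with an adjusted p of 0.123 (limma, Benjamini-Hochberg over all genes tested), and the groups did not overlap. The call was lost without shNAT10-1 (-1.07) or without shNAT10-2 (-1.11), when the remaining shNAT10 library is assumed to vary like the shNC libraries.

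The labels call the cells germ stem cells. The paper checked its FGSCs by RT-PCR for *Oct4* (*Pou5f1*), *Ddx4*, *Fragilis* (*Ifitm3*) and *Blimp1* (*Prdm1*) and by immunofluorescence for DDX4 and OCT4. In these libraries, of 6 germline markers 3 were not detected and 2 were near 0. *Pou5f1*, *Dazl* and *Dppa3* were at 0 in all 4 libraries, *Ddx4* was above 0 only in shNAT10-1 at 0.0529 FPKM, and *Prdm1* was at most at 0.0916, while *Ifitm3*, which other cell types express too, was at 9.29 and 22.2 FPKM in shNC and 27.1 and 33.6 in shNAT10. The groups did not overlap for *Ifitm3*, and the log2 fold change of 1.06 ± 0.43 (SE) was not called, but it was without shNC-2 (1.69) and was 0.44 without shNC-1, and its adjusted p was 0.00365 with limma-voom. Of 5 leukocyte markers all were detected, with a summed level of 443 and 493 FPKM in shNC and 363 and 384 in shNAT10, and 3 of them (*Cd53*, *Lcp1* and *Laptm5*) were called lower in shNAT10, beside 7.83% of all genes tested. The other leukocyte markers were not called: *Ptprc* (CD45), at 15.5 and 15.4 FPKM in shNC and 15.3 and 15.3 in shNAT10, had a log2 fold change of -0.01, and *Coro1a* overlapped between the groups (-0.04). The calls of *Cd53* (-0.55) and *Lcp1* (-0.32) were lost without shNAT10-1, and that of *Laptm5* without shNC-1 (-0.34), shNAT10-1 (-0.51) or shNAT10-2 (-0.76). The mast cell protease gene *Cpa3* lay between 245 and 272 FPKM, with *Fcer1a* and *Tpsb2* at 0, *Kit* was called lower and *Ms4a2* higher (both calls were lost without shNAT10-1, at -0.55 and 1.99), and the sum of 6 mast cell markers was 271 and 284 in shNC and 290.1 and 286 in shNAT10. Fibroblast markers summed to 51.0 and 44.2 FPKM in shNC and to 59.5 and 49.9 in shNAT10 with *Lum* at 0 and *Pdgfra* called higher (0.83, lost without shNAT10-1 at 0.79 or without shNAT10-2 at 0.88), and granulosa markers to at most 0.485 FPKM with *Foxl2* and *Fshr* at 0. Recovered totals were 11056420 to 14897488 fragments per library, of which rRNA-related loci took 48.3% and 38.4% in shNC and 26.8% and 28.6% in shNAT10. Besides annotated rRNA genes, this set held among others *Gm42418*, *Gm26917*, *Rn7sk* and the protein-coding *Lars2*. By qPCR the paper reports lower *Gm42418* and *Gm26917* in shNAT10, so the share is not that of rRNA alone. Thus 3 of 5 leukocyte markers were called, and the levels of *Ifitm3* and the rRNA-related share did not overlap between the groups. The part of the cells that carry these markers in the results on initiation factors was not tested. For the rRNA-related share, the totals outside these loci were made equal, and the calls of initiation factor genes that this added, and those of any gene named here that it ended, are given with the results. Among the markers it ended that of *Laptm5* (-0.57 and -0.59 with equal FPKM and equal fragment totals). In bulk RNA a lower level can come from fewer cells of a type or from less RNA per cell, and these cannot be told apart.

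Most initiation factor mRNAs were readily detected in both groups. Of the 51 genes, 48 had a mean of at least 0.1 FPKM and were tested. The other 3 were at 0 in every library: *Eif2s3y*, the Y-linked copy of the eIF2 gamma subunit gene, *Eif4e1b*, known from oocytes, and *Eif4e3*. Means of the tested genes ran from 0.126 FPKM for *Eif4ebp3*, which rested on 5 fragments, to 473 FPKM for *Eif5a*. Summed over the tested genes, the level was 2566 and 2589 FPKM in shNC and 2390.4 and 2366 in shNAT10. Both shNAT10 sums lay below both shNC sums, with a mean that was 7.73% lower. With the FPKM or the fragments outside rRNA-related loci made equal in sum, it was 3.14% or 4.45% lower. The 14 eIF3 genes gave 33.5% to 34.7% of this sum in each library, and *Eif5a* with *Eif5a2* gave 18.4% to 19.7%.

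**Figure D1:**
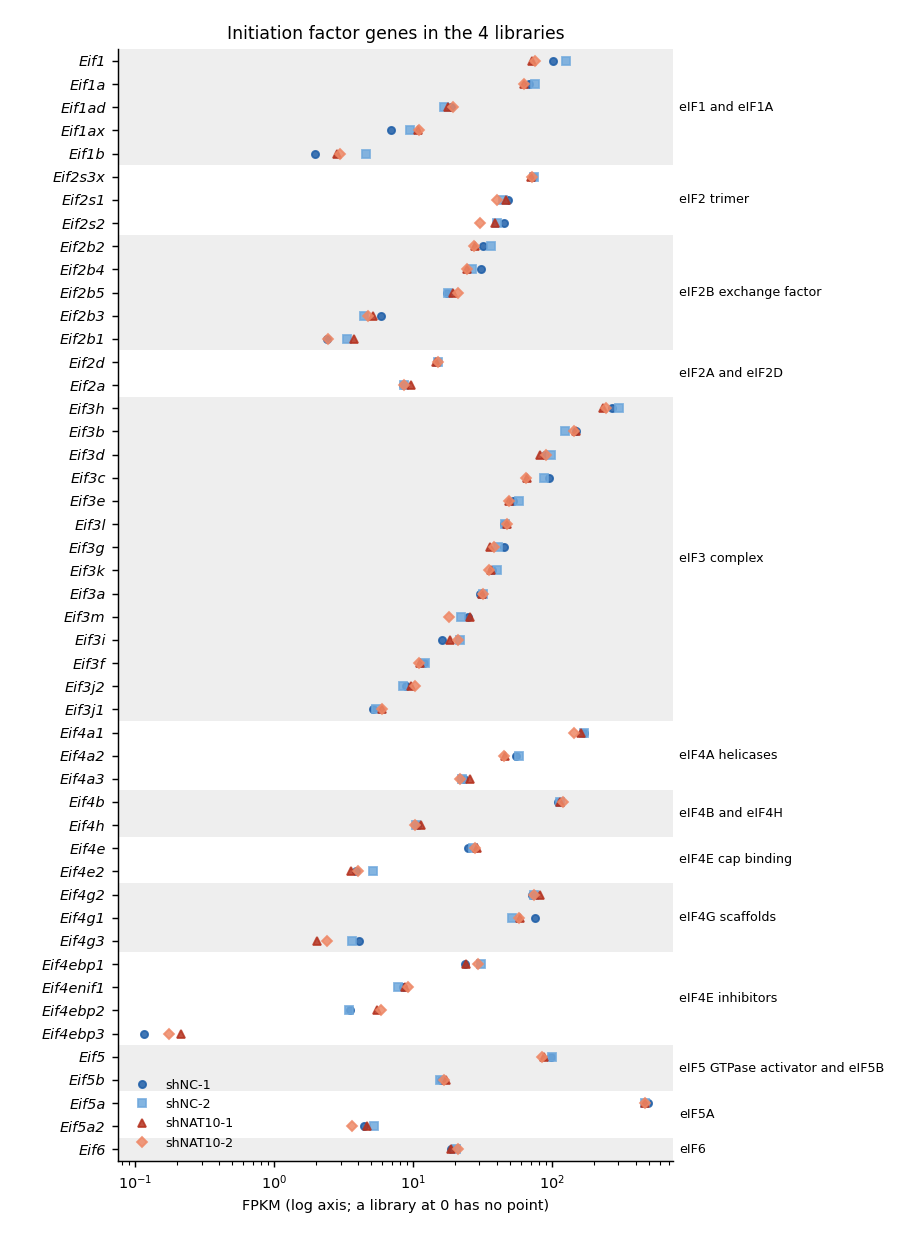
FPKM of the 48 tested initiation factor genes (log axis) in each of the 4 libraries, ordered by role and by mean level within a role. For most genes the 4 points lie close together, from *Eif4ebp3* at 0.126 FPKM on average to *Eif5a* at 473 FPKM.

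Between shNC and shNAT10, 6 initiation factor genes were lower and 1 was higher in shNAT10. The lower ones were *Eif1*, *Eif2b2*, *Eif3c*, *Eif3h*, *Eif4a2* and *Eif4g3*, and the higher one was *Eif4ebp2*, which encodes an inhibitor of eIF4E. The 7 called genes were 14.6% of the 48 tested. Over all 20116 genes tested 3267 were called, which is 16.2%, with 8.41% higher and 7.83% lower in shNAT10. The share among initiation factor genes was thus near that of all genes. At a mean of at least 10 FPKM it was 14.3%, beside 27.8% of protein-coding genes. The split of all calls depended on scaling: 1691 were higher and 1576 lower as deposited, against 2137 higher and 1144 lower when the FPKM outside rRNA-related loci were made equal in sum. Under that scaling 3 initiation factor genes were called higher and 3 lower: *Eif2b2* (-0.23), *Eif3h* (-0.20) and *Eif4a2* (-0.24) were no longer called, and *Eif1ax* (0.50) and *Eif2b5* (0.27) were.

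No initiation factor gene reached an adjusted p under 0.05 by limma (Benjamini-Hochberg over all genes), where 88 of all genes (0.437%) did. An unadjusted p under 0.05 was found for 8 of the 48, beside 16.6% of all genes tested, and limma-voom on recovered fragments gave 5 of them an adjusted p under 0.05 (*Eif1*, *Eif3c*, *Eif4a2*, *Eif4ebp2* and *Eif4g3*), where it gave one to 7.86% of all genes. Log2 fold changes had a median of -0.04 over the 48 genes, with 27 below and 21 above 0, beside a median of 0.01 and 49.5% below 0 over all genes tested. The sign of this median turned under the 2 scalings to equal totals without rRNA-related loci, at 0.025 and 0.0054, when the median of all genes was 0.07 and 0.05. Groups did not overlap for 29 of the 48 genes, with shNAT10 below for 17 and above for 12, whereas 48.0% of all genes tested did not overlap, 24.1% with shNAT10 below and 23.9% with it above.

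Differences between the groups were mostly small for initiation factor genes. The median size of the log2 fold change, without its sign, was 0.12 over the 48 genes, 0.23 over 12837 protein-coding genes tested and 0.18 over the 3124 of these with a mean of at least 10 FPKM. At that level 5 of 35 initiation factor genes were called (14.3%), beside 27.8% of the protein-coding genes. These are descriptions, without a test.

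**Figure D2:**
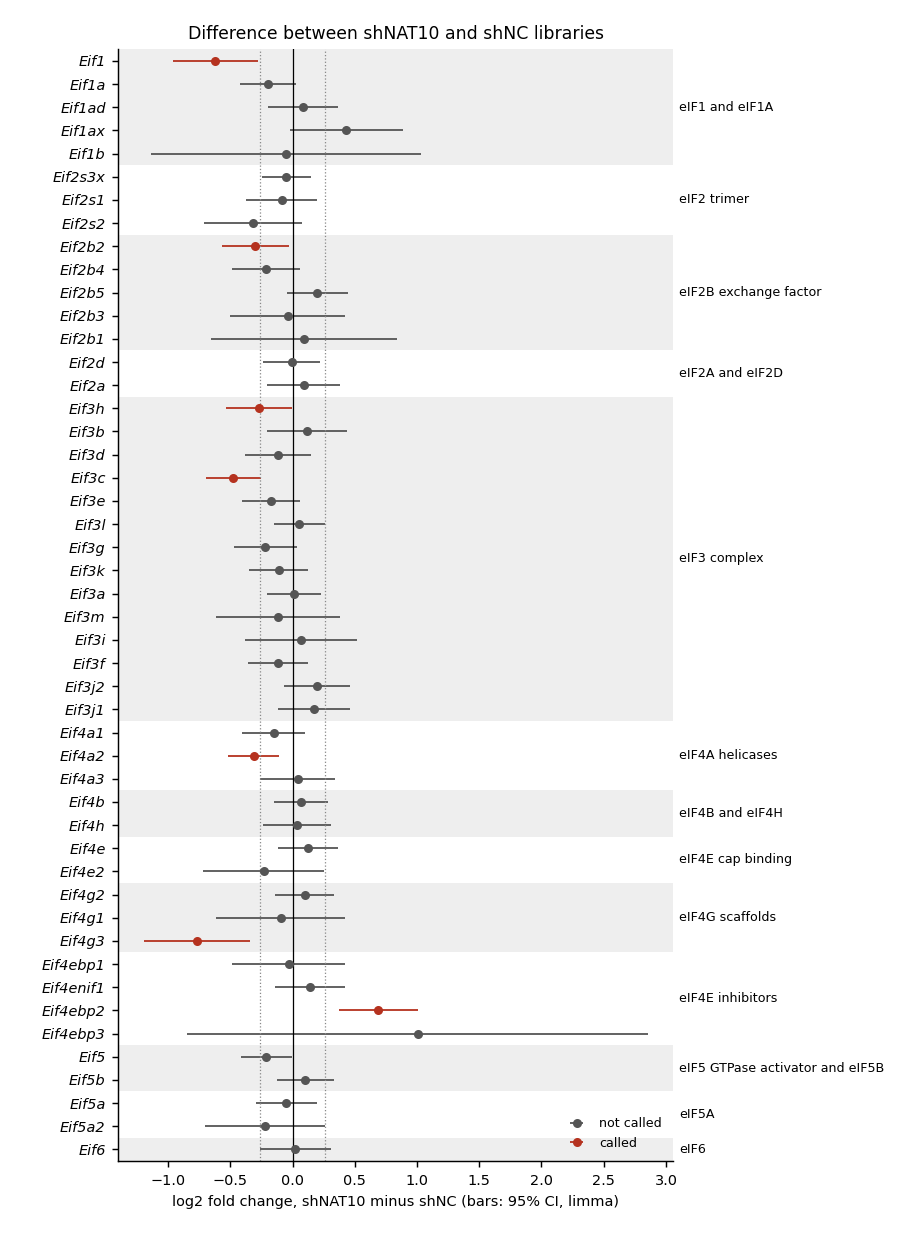
Log2 fold change of the 48 tested genes, shNAT10 minus shNC, with 95% confidence intervals from limma and dotted lines at a fold change of 1.2. The 7 called genes are in red, 6 to the left of 0 and *Eif4ebp2* to the right, and the wide interval is that of *Eif4ebp3*, which rests on 5 fragments.

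In the eIF1 group, *Eif1* was lower in shNAT10. Its protein holds the small subunit in the scanning state and keeps it from starting at the wrong codon. *Eif1* was at 102 and 126 FPKM in shNC and 71.7 and 75.4 in shNAT10. Both knockdown libraries lay below both controls, and the shNC libraries differed more from each other than the shNAT10 libraries did. The level fell by 35.0%, a log2 fold change of -0.62 ± 0.13 (SE, adjusted p = 0.140). The call was lost without shNAT10-1 (-0.58) and without shNAT10-2 (-0.66). The gene lies at chr11:100319885-100322096 on the plus strand (GRCm38), and 15.3% of its exonic 75-base words also occur in 14 other annotated genes, so part of its fragments may have been assigned elsewhere.

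The eIF1A genes were not called. eIF1A works beside eIF1 on the small subunit and is encoded by *Eif1a* and its X-linked paralog *Eif1ax*. *Eif1ax* was at 6.94 and 9.41 FPKM in shNC and 10.9 and 11.01 in shNAT10, with shNAT10 above shNC in every pairing. Its log2 fold change of 0.43 (95% interval -0.02 to 0.88) did not pass the threshold, but the gene was called under 6 of 14 alternatives, among them limma-voom (0.44) and both scalings to equal totals (0.50 and 0.48). It was 0.22 without shNC-1 and 0.65, and called, without shNC-2. *Eif1a* had a log2 fold change of -0.20 (-0.42 to 0.03). *Eif1ad* and *Eif1b*, a close paralog of *Eif1*, overlapped between the groups, and *Eif1b* differed most among controls, at 1.97 FPKM in shNC-1 and 4.57 in shNC-2. It was called lower without shNC-1 (-0.64) and higher without shNC-2 (0.53).

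The eIF2 trimer genes were not called. The alpha, beta and gamma subunits, encoded by *Eif2s1*, *Eif2s2* and *Eif2s3x*, had log2 fold changes of -0.09, -0.32 and -0.05. *Eif2s3x* was the highest, at 72.9 and 73.5 FPKM in shNC and 70.3 and 71.3 in shNAT10. These 4 values lay close together, with shNAT10 just below shNC and a 95% interval of the log2 fold change from -0.25 to 0.15. For *Eif2s2* the interval was wider, from -0.71 to 0.07. It was called lower with limma-voom (-0.33) and with the replicate block, and ranged from -0.49 without shNAT10-1 to -0.15 without shNAT10-2. A share of 34.2% of the exonic 75-base words of *Eif2s3x* is shared with *Gm2223* and a pseudogene of *Eif2s3x*.

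Of the 5 genes for the exchange factor eIF2B, *Eif2b2* was called lower. It encodes the beta subunit, part of the regulatory subcomplex that senses phosphorylated eIF2. *Eif2b2* was at 31.7 and 36.5 FPKM in shNC and 27.9 and 27.3 in shNAT10. The groups did not overlap, but the nearest libraries, shNC-1 and shNAT10-1, were less far apart than the shNC libraries were from each other. The log2 fold change was -0.30 ± 0.10 (SE, adjusted p = 0.267). It was called in only 1 of the 4 fits that leave out a library: without shNC-2 it was -0.20, without shNAT10-1 -0.31 and without shNAT10-2 -0.28. The call was also lost with equal FPKM (-0.23) or fragment totals (-0.25). *Eif2b2* lies at chr12:85219481-85226628 on the plus strand (GRCm38). The catalytic subunit gene *Eif2b5* had a log2 fold change of 0.20 (-0.04 to 0.44), *Eif2b4* of -0.21 (-0.49 to 0.06; called without shNC-2 at -0.32), and *Eif2b1* and *Eif2b3* overlapped between the groups.

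*Eif2a* and *Eif2d* encode separate proteins that can bring tRNA to the ribosome without the trimer. *Eif2d*, the higher of them, was at 14.8 and 15.1 FPKM in shNC and 14.7 and 15.1 in shNAT10. No difference was detected, with a 95% interval of the log2 fold change from -0.24 to 0.22. *Eif2a* had a log2 fold change of 0.09 (-0.20 to 0.38).

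Among the eIF3 genes, *Eif3c* and *Eif3h* were called lower and the other 12 were not called. eIF3 is the largest initiation factor and bridges the small subunit, eIF4G and the mRNA. *Eif3c* encodes a core subunit that contacts eIF1 and eIF5. It was at 94.4 and 87.7 FPKM in shNC and 66.5 and 64.4 in shNAT10. The gap between the groups was wider than the difference within either group. *Eif3c* fell by 28.1%, with a log2 fold change of -0.48 ± 0.08 (SE, adjusted p = 0.115), and stayed called whichever library was left out (-0.53 to -0.42). It lies at chr7:126546455-126566411 on the minus strand (GRCm38).

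*Eif3h* encodes a subunit with an MPN domain and had the highest mean of the eIF3 genes. It was at 271 and 303 FPKM in shNC and 233 and 244 in shNAT10. The groups did not overlap, and the gap between the nearest libraries was narrower than that between the shNC libraries. The log2 fold change of -0.27 ± 0.10 (SE, adjusted p = 0.298) was at the edge of the threshold. The call was lost without shNC-2 (-0.19), without shNAT10-1 (-0.23) and without shNAT10-2 (-0.30). In all it was lost under 9 of 14 alternatives: these, both scalings to equal totals (-0.20 and -0.22), no filter, a minimum mean of 1 FPKM, no trend and the replicate block. Of its exonic 75-base words 12.7% are shared with *AC122253.2*.

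The genes of the other large core subunits of eIF3 were not called. *Eif3a* and *Eif3b*, which scaffold the complex, had log2 fold changes of 0.01 (-0.21 to 0.23) and 0.12 (-0.20 to 0.44). The FPKM of *Eif3c* over that of *Eif3a* within a library, which no scaling of libraries can change, was 3.10 and 2.74 in shNC and 2.14 and 2.02 in shNAT10. The same ratio over *Eif3b* was 0.632, 0.713, 0.446 and 0.444 in that order. Both ratios were lower in both shNAT10 libraries, with an exact permutation p of 0.333, the smallest that this design allows. They were chosen after the values had been seen, with *Eif3c* already called, so they are descriptions and no independent evidence. The eIF3 genes ranged in mean level from 5.60 FPKM for *Eif3j1* to 263 for *Eif3h*, with 8 log2 fold changes below 0 and 6 above, from -0.22 for *Eif3g* to 0.20 for *Eif3j2* among the 12 not called. *Eif3j1* and *Eif3j2*, at 0.17 and 0.20, share 47.3% and 87.4% of their exonic 75-base words with each other or with other genes, so their values cannot be separated well. *Eif3d* shares 34.2% with the antisense gene *Gm17638*.

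In eIF4F, *Eif4a2* and *Eif4g3* were called lower, while *Eif4e*, *Eif4a1* and *Eif4g1* were not called. The eIF4A helicases unwind mRNA near the cap. *Eif4a1*, the main form, was at 168 and 169 FPKM in shNC and 160.5 and 143 in shNAT10. The shNAT10 libraries lay below both controls and differed more from each other than the controls did, and the log2 fold change was -0.15 (-0.40 to 0.10). Of its exonic 75-base words 25.4% occur in 6 other genes.

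*Eif4a2*, the paralog of *Eif4a1*, was at 55.4 and 57.8 FPKM in shNC and 46.0 and 45.0 in shNAT10. The groups were far apart compared with the small difference within each. The log2 fold change was -0.31 ± 0.08 (SE, adjusted p = 0.186). Without shNAT10-2 it was -0.30 and no longer called, and with equal FPKM totals it was -0.24, below the fold threshold. The gene lies at chr16:23107444-23114136 on the plus strand (GRCm38), and 8.29% of its exonic 75-base words occur in 9 other genes, among them snoRNAs within it. *Eif4a3* had a log2 fold change of 0.04 (-0.26 to 0.34).

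Of the scaffold genes *Eif4g3* was called. It encodes a paralog of eIF4G that is less abundant in most cells and is known for its role in male meiosis. *Eif4g3* was at 4.08 and 3.61 FPKM in shNC and 2.04 and 2.39 in shNAT10. Both shNAT10 libraries were well below both controls. *Eif4g3* fell by 41.4%, with a log2 fold change of -0.77 ± 0.16 (SE, adjusted p = 0.142), the largest fall among the initiation factor genes tested. The call was lost without shNC-1 (-0.69) and without shNAT10-1 (-0.66). It lies at chr4:137993022-138208508 on the plus strand (GRCm38) and rested on 1692 fragments over the 4 libraries.

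*Eif4g2*, which encodes a cap-independent relative without an eIF4E site, had the highest level of the scaffolds, at 72.0 and 73.99 FPKM in shNC and 82.2 and 74.1 in shNAT10. Only shNAT10-1 stood apart, since shNAT10-2 was level with shNC-2, and the log2 fold change was 0.10 (-0.14 to 0.34). *Eif4g1* was at 75.3 FPKM in shNC-1 and 51.4 in shNC-2, a wider gap than any to the shNAT10 libraries, which lay between them. Its log2 fold change was -0.09 with an interval from -0.61 to 0.42, so a difference of moderate size was not detectable. The value turned on the control kept: it was 0.18 without shNC-1 and -0.37, and called, without shNC-2.

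The cap-binding gene *Eif4e* was at 24.8 and 27.1 FPKM in shNC and 29.001 and 27.7 in shNAT10. The shNAT10 libraries lay slightly above the controls, and the log2 fold change of 0.13 (-0.11 to 0.37) did not pass. *Eif4e2*, which encodes a repressive relative, had -0.23 (-0.72 to 0.25). *Eif4b* and *Eif4h* encode helpers of eIF4A. *Eif4b* was at 109 and 114 FPKM in shNC and 114 and 120.2 in shNAT10, and *Eif4h* had a log2 fold change of 0.03 (-0.24 to 0.31). Neither gene separated the groups.

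Of the inhibitors of eIF4E, *Eif4ebp2* was higher in shNAT10. Its protein binds eIF4E in place of eIF4G until mTOR phosphorylates it. *Eif4ebp2* was at 3.49 and 3.44 FPKM in shNC and 5.47 and 5.83 in shNAT10. The controls were nearly equal and both shNAT10 libraries stood clearly above them. The level was 61.3% higher, a log2 fold change of 0.69 ± 0.12 (SE, adjusted p = 0.111). This was the smallest p among the initiation factor genes in the main limma fit, whereas with limma-voom *Eif1*, *Eif3c* and *Eif4g3* had a smaller one. *Eif4ebp2* stayed called whichever library was left out (0.64 to 0.74). It lies at chr10:61428491-61452661 on the minus strand (GRCm38), shares none of its exonic 75-base words with other genes and rested on 1387 fragments.

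*Eif4ebp1*, the more abundant inhibitor, was at 23.7 and 30.7 FPKM in shNC and 24.0 and 29.05 in shNAT10. Its groups overlapped, and the log2 fold change was -0.03 (-0.48 to 0.42). *Eif4ebp2* therefore formed a larger share of the summed FPKM of the pair, 18.6% in shNAT10-1 and 16.7% in shNAT10-2 against 12.8% in shNC-1 and 10.1% in shNC-2. The ratio of *Eif4e* to both inhibitors together was 0.914 and 0.795 in shNC and 0.985 and 0.795 in shNAT10, and the groups overlapped. *Eif4enif1*, which encodes a carrier of eIF4E into the nucleus, had a log2 fold change of 0.14 (-0.15 to 0.42). *Eif4ebp3* was at 0.114 FPKM and 0 in shNC and 0.214 and 0.175 in shNAT10, on 5 fragments in all, too few for a fold change.

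**Figure D3:**
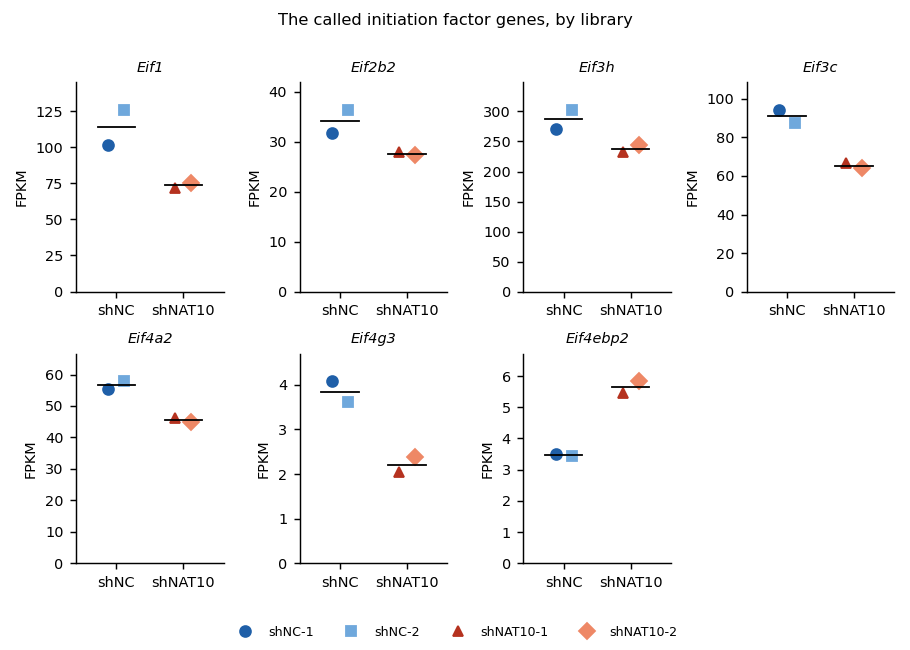
FPKM of the 7 called genes in each library, with the mean of each group as a black line and axes from 0. The 2 shNAT10 points lie below the 2 shNC points for *Eif1*, *Eif2b2*, *Eif3h*, *Eif3c*, *Eif4a2* and *Eif4g3* and above them for *Eif4ebp2*.

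Paralog shares, which do not depend on scaling between libraries, were computed for pairs chosen after their values had been seen. The other ratios and shares between named genes were chosen in the same way. *Eif4g3* was 5.14% and 6.56% of the summed FPKM of *Eif4g1* and *Eif4g3* in shNC and 3.35% and 3.97% in shNAT10. *Eif1ax* was 9.19% and 11.2% of *Eif1a* and *Eif1ax* in shNC and 14.8% and 15.0% in shNAT10. *Eif4a2* was 24.8% and 25.5% of *Eif4a1* and *Eif4a2* in shNC and 22.3% and 23.9% in shNAT10. In each of these pairs the groups did not overlap, with an exact permutation p of 0.333, the smallest possible here.

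**Figure D4:**
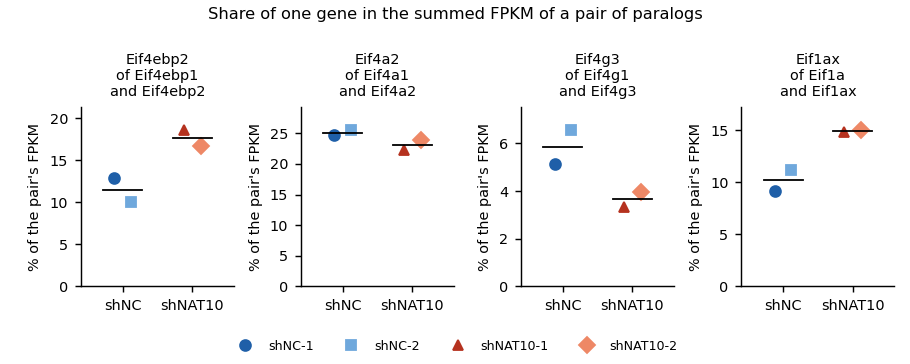
Share of a gene in the summed FPKM of a pair of paralogs (percent) in each library, with group means as black lines. The share of *Eif4ebp2* and of *Eif1ax* is higher in both shNAT10 libraries, and that of *Eif4g3* and of *Eif4a2* is lower.

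The genes for the last steps of initiation were not called. *Eif5* encodes the factor that makes eIF2 hydrolyse GTP at the start codon. It was at 98.03 and 100.4 FPKM in shNC and 86.7 and 84.8 in shNAT10. The groups were well apart, yet the log2 fold change of -0.21 ± 0.08 (SE, adjusted p = 0.289) lay below the fold threshold. *Eif1* over *Eif5*, whose proteins act against each other at the start codon, was 1.04 and 1.26 in shNC and 0.827 and 0.890 in shNAT10 as a ratio of FPKM. *Eif5b* had a log2 fold change of 0.10 (-0.12 to 0.33), and part of its exonic sequence overlaps *Rev1* on the opposite strand.

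*Eif5a* was the most abundant of the genes, at 492 and 469.9 FPKM in shNC and 466 and 463 in shNAT10. The spread over all 4 libraries was small, and the interval of the log2 fold change ran from -0.29 to 0.19. *Eif5a2* was 0.773% to 1.10% of the summed FPKM of both genes, and its groups overlapped. *Eif6* was at 18.6 and 20.5 FPKM in shNC and 18.7 and 21.0 in shNAT10, so the libraries did not separate by group (log2 fold change 0.02, -0.26 to 0.31).

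Genes that set the phosphorylation of eIF2 were called in part. Of 4 eIF2 kinases and 2 phosphatase subunits, 1 kinase was higher and both subunits were lower, beside 16.2% of all genes called in either direction. *Eif2ak2* encodes PKR, the kinase activated by double-stranded RNA and induced by interferon. It was at 5.31 and 4.84 FPKM in shNC and 10.4 and 9.96 in shNAT10. Both knockdown libraries were well above either control, with a log2 fold change of 0.99 ± 0.11 (SE, adjusted p = 0.0610). Its share of the summed FPKM of the 4 kinases was 27.0% and 25.2% in shNC and 44.7% and 41.4% in shNAT10. *Eif2ak1* (HRI), *Eif2ak3* (PERK) and *Eif2ak4* (GCN2) had log2 fold changes of -0.01, -0.31 and 0.02 and were not called. The value of *Eif2ak3* ranged from -0.09 without shNAT10-1 to -0.52 without shNAT10-2.

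The subunits that bring the phosphatase to eIF2 were lower. *Ppp1r15a* encodes the stress-induced subunit GADD34 and was at 31.3 and 26.6 FPKM in shNC and 11.9 and 15.2 in shNAT10, with a log2 fold change of -1.09 ± 0.16 (SE, adjusted p = 0.0861). *Ppp1r15b*, which encodes the constitutive subunit, was at 31.3, 31.1, 22.7 and 24.2 FPKM in the same order, with -0.41 ± 0.08 (SE, adjusted p = 0.139). For both genes the groups were far apart compared with the spread within them. Of 8 genes of the ATF4 arm, whose mRNAs or promoters respond when eIF2 is phosphorylated, 7 were called lower and none higher, beside 7.83% of all genes called lower. *Asns* was not called (-0.24), but it was without shNC-1 (-0.33). The arm had been seen to move in these data before it was listed, so the count of called genes is no independent evidence. *Atf4* had a log2 fold change of -0.62 ± 0.10 (SE) and *Ddit3*, which encodes the stress factor CHOP, of -1.34 ± 0.13 (SE, adjusted p = 0.0489 by limma). *Chac1*, which encodes an enzyme that degrades glutathione, had -0.89 and *Atf3*, which encodes a stress-induced transcription factor, had -1.11. *Ppp1r15a* is itself known as a target of this arm. Calls were lost for *Trib3* without shNC-1 (-0.46) or shNC-2 (-0.40), for *Ddit4* without shNAT10-1 (-0.69) or shNAT10-2 (-0.55) and for *Sesn2* whichever library was left out (-0.59 to -0.31) and with equal FPKM (-0.38) or fragment totals (-0.40). The state of the eIF2 protein was not measured here.

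**Figure D5:**
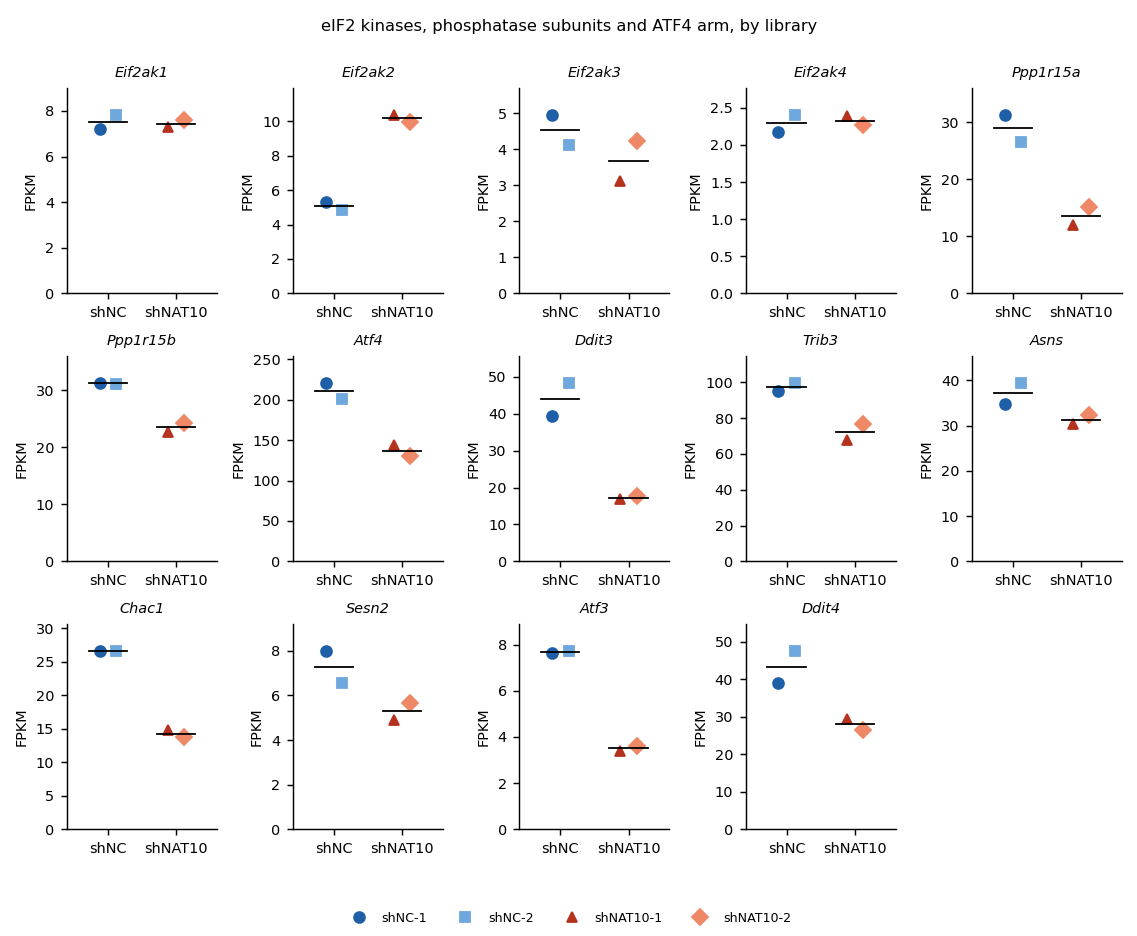
FPKM of the 4 eIF2 kinase genes, the 2 phosphatase subunit genes and 8 genes of the ATF4 arm in each library, with group means as black lines and axes from 0. *Eif2ak2* is the only panel in which both shNAT10 points lie above both shNC points, and in the panels of *Ppp1r15a*, *Ppp1r15b* and the ATF4 arm they lie below.

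Among 39 tested genes of 4 further lists of the translation machinery, 6 were called (15.4%), beside 16.2% of all genes tested. Of 11 tested initiation and recycling genes without the Eif name, *Mcts2* was higher (0.94, on 58 fragments) and *Ltv1*, a maturation factor of the small subunit, was lower (-0.64). Of 15 partners and regulators of eIF4F, *Mknk2*, which encodes a kinase of eIF4E, was higher (0.45) and *Rps6ka1*, which encodes the kinase RSK1, was lower (-0.37). The median log2 fold change of these 15 was -0.18. *Pabpc1*, which encodes the poly(A)-binding protein, had -0.24 and was not called, but it was without shNC-1 (-0.28). None of the 3 loci for the enzymes that hypusinate eIF5A was called. Of 10 tested elongation and termination genes, *Gspt1*, which encodes the release factor eRF3a, was higher (0.44) and *Eef2*, which encodes the translocase, was lower (-0.33), a call that was lost whichever library was left out (-0.38 to -0.29). *Eef1a1* was at 1466 and 1584 FPKM in shNC and 1241 and 1270 in shNAT10. Its log2 fold change of -0.28 was not called, while limma-voom gave an adjusted p of 0.0158. Without shNAT10-1 the calls of *Mcts2* (0.97), *Mknk2* (0.43), *Rps6ka1* (-0.22) and *Gspt1* (0.38) were lost, without shNAT10-2 those of *Mcts2* (0.91) and *Mknk2* (0.47), and without shNC-1 or shNC-2 that of *Rps6ka1* (-0.38 and -0.37). Calls were also lost for *Rps6ka1* with equal FPKM (-0.30) or fragment totals (-0.32), for *Eef2* with equal FPKM totals (-0.26) and for *Mcts2* with limma-voom (0.98).

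Initiation factor genes of the TOP class, whose mRNAs start with a run of pyrimidines and are translated under control of mTOR, were listed apart: *Eif3e*, *Eif3f*, *Eif3h* and *Eif4b*. Of these 4 genes *Eif3h* was called, beside 16.2% of all genes tested and with the losses of that call given above. The log2 fold changes were -0.18, -0.12, -0.27 and 0.07. *Eif3e* was not called, with an interval from -0.41 to 0.06. The median of -0.15 over the 4 genes stood beside 0.01 over all genes tested.

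Promoters were read from RefSeq (GRCm38.p6) as 250 bases before to 50 after each start, and 39 of the 51 genes had one. The E-box CACGTG, the site of MYC and related factors, which reads the same on both strands, was found in 10 of the 39 (25.6%), in 11.5% of 9924 tested protein-coding genes and in 8.09% of all 27025 genes with a promoter. The ETS-type motif CCGGAAG, searched on both strands, was found in 15 of the 39 (38.5%), in 19.9% of the tested protein-coding genes and in 9.93% of all. Of the 7 called genes 6 had a promoter. None of these 6 held the E-box and 3 held the ETS-type motif (*Eif2b2*, *Eif3c* and *Eif4ebp2*). A match describes letters and is not a bound site. The first 3 stretches below are shown because their genes encode the subunits of eIF4F and carry the E-box, in capitals, and none of the 3 genes was called.
Eif4e, position -64 from the start, chr3:138527192-138527221, plus strand: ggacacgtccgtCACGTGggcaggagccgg
Eif4g1, position -54, chr16:20672661-20672690, plus strand: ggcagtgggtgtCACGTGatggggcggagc
Eif4a1, position -189, chr11:69672595-69672624, minus strand: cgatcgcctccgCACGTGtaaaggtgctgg

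The called genes with the ETS-type motif are shown next, with the motif or its reverse complement in capitals, since these are 2 genes that were lower and 1 that was higher in shNAT10. None of them holds the E-box.
Eif3c, position -34, chr7:126566382-126566411, minus strand: aaccttttcctCTTCCGGcgtcgtgcctgt
Eif2b2, position 16, chr12:85219486-85219515, plus strand: cctctctcggcCCGGAAGtgaaacagtgct
Eif4ebp2, position -124, chr10:61452775-61452804, minus strand: gccttcgaccgCTTCCGGtagtcatcgttg

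A start with C and at least 4 further pyrimidines was found in 2 of the 39 genes (5.13%), beside 2.98% of the tested protein-coding genes. These windows run from 10 bases before to 20 bases from the RefSeq start, with the pyrimidine run in capitals, 11 bases in *Eif3f* and *Eif2s3x*. They are shown because *Eif3f* and *Eif4b* are on the TOP list and *Eif2s3x* is not. None of the 3 genes was called. *Eif3e* and *Eif3h*, also on the TOP list, had no promoter, so the start of the called *Eif3h* was not read. The window of *Eif4b* does not match: its pyrimidine run at the RefSeq start is 1 base long.
Eif3f, chr7:108934405-108934434, plus strand: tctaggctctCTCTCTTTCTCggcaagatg
Eif4b, chr15:102073763-102073792, plus strand: tcccgtcggaCgccgcgccaccccctcgcg
Eif2s3x, chrX:94212632-94212661, minus strand: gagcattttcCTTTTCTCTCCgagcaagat

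The genes whose pattern over the 4 libraries was most like that of *Eif4ebp2*, the initiation factor gene with the smallest p in the main limma fit, were *Mycbp*, *Eps8*, *Zfp52*, *Anln* and *Cntln*. Likeness was the distance between log2 values centred on their mean over the 4 libraries, among protein-coding genes without the Eif name, and ranged from 0.0423 for *Mycbp* to 0.0548 for *Cntln*. *Mycbp*, for example, was at 1.92 and 1.95 FPKM in shNC and 3.10 and 3.22 in shNAT10. With 4 libraries many genes can share such a pattern.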

How the data were processed

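The 4 Long RNA-seq libraries were grouped by their sample titles into shNC and shNAT10. The authors deposited FPKM for each gene and library. Per the labels, reads were 150 bases, paired-end, and cutadapt, HISAT2 and DESeq2 were used with the mm10 build. Versions and annotation are not given in the sources used here. A second deposited table with the authors' own fold changes and p-values was not used. Values of single libraries left out numbered 0.

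The deposited FPKM were already scaled alike: median-ratio factors were 1.00 in every library. Whole fragments were recovered from FPKM and GENCODE M21 exon lengths (96.0% to 96.6% of low values lay within 0.02 of a whole number, where 4% would by chance). A floor of 3 fragments corresponds to 0.196 to 0.256 FPKM for a kilobase of exon and covers counting error only.

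log2(FPKM + 0.1) was computed for the 20116 genes averaging 0.1 FPKM or more, a scale that understates changes of low genes. Groups were compared with limma 3.58.1 (lmFit, eBayes with trend, two-sided) in R 4.3.3, with Benjamini-Hochberg adjustment over all genes, as FPKM are not suited to DESeq2. The fit was also run on simulated fragments, and no result given here rests on that run. Exact permutation tests and figures used Python 3.11.15 with scipy 1.17.1, numpy 2.4.6, pandas 2.3.3 and matplotlib 3.10.9.

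Every gene found by the rule was accounted for. Values in each library are given for called genes and for the gene with the highest mean of each of 13 roles, and called genes of the listed pathways are named. Genes, lists and tests were chosen with earlier results of these data known. Alternatives were pseudocounts of 1 and 0.01, no filter or a minimum mean of 1 FPKM, median-ratio scaling, equal FPKM or fragment totals without 364 rRNA-related loci, no trend, limma-voom on recovered fragments, the replicate number as a block, and each library left out.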

Additional observations from a re-analysis of the deposited data

How the results depend on the processing

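Median-ratio factors were equal in all libraries, so that scaling could change no call. Over the other 13 alternatives no called initiation factor gene changed its direction, and 69 of 91 values kept the call while 22 lost it. The number of called genes, 7, was 4 with limma without the trend, and 3 to 9 when a library was left out, with 3 without shNAT10-1 and 3 without shNAT10-2. The median log2 fold change of the 48 genes tested, -0.04, was 0.025 with equal FPKM totals without rRNA-related loci, and -0.052 to -0.031 when a library was left out. Over all genes 3267 calls became 2007 to 3393 when a library was left out, with 2007 without shNAT10-1, and 2668 (a minimum mean of 1 FPKM) to 3893 (limma-voom) under the other alternatives. Genes with an adjusted p under 0.05 numbered 88 with limma, 0 to 296 over its alternatives (0 with either other pseudocount, without the filter, without the trend, with the replicate block and with any library left out) and 1579 with limma-voom. Of the 41 genes not called, 16 changed sign and 7 were called under some alternative: *Eif1ax*, *Eif1b*, *Eif2b4*, *Eif2b5*, *Eif2s2*, *Eif4ebp3* and *Eif4g1*.

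Same-numbered libraries did not deviate together (r = 0.0071 across 20116 genes), so no pairing by replicate number was visible in these values. This cannot show whether the libraries were prepared in pairs. With the replicate number as a block 8 initiation factor genes and 3114 genes in all were called, and the median log2 fold change was -0.04. Depth limits *Eif4ebp3*, on 5 fragments in all, whereas the SE of *Eif4g1*, on 22761 fragments, was 0.20 and that of *Eif3f*, on 1717, was 0.09.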

Other observations

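Loci with an Eif name that are not protein-coding numbered 9 in the table and entered no comparison above. *Eif3s6-ps2*, named as a pseudogene of *Eif3e*, was the only one with a sizeable level, at 20.2 and 18.8 FPKM in shNC and 9.09 and 16.1 in shNAT10. Both shNAT10 libraries lay below the controls, and the log2 fold change of -0.69 ± 0.28 (SE) did not pass the threshold. It was -0.28 without shNAT10-1 and -1.09, and called, without shNAT10-2, and limma-voom gave an adjusted p of 0.0281. *Eif4a-ps4* lay between 3.05 and 4.05 FPKM with overlapping groups, and no other locus exceeded 0.565 FPKM in any library.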
